A study of Mus musculus with 2 samples.

Results

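The genes described here are 10 histone methyltransferase genes outside the SET1 and polycomb complexes, followed in CD4 and CD8 double-positive (DP) thymocytes with and without Cxxc1. They were chosen by symbol from the 21041 genes of the deposited table, with earlier results of these data known, and all 10 were found. *Suv39h1*, *Suv39h2*, *Ehmt1*, *Ehmt2* and *Setdb1* encode enzymes that methylate lysine 9 of histone H3 (H3K9). *Setd2*, *Nsd1* and *Ash1l* encode enzymes of H3K36 and *Dot1l* the enzyme of H3K79. *Setd7* encodes a methyltransferase known for monomethylation of H3K4 and of non-histone proteins, so it belongs to the set by the rule and not by these marks.

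Cxxc1 is a subunit of the SET1 complex, which places H3K4 trimethylation at CpG-rich promoters, and the study asked how its loss changes expression in DP thymocytes, the cells that form most of the thymus. The RNA-seq data hold 1 library per genotype. The mice called WT in the study were *Cxxc1* fl/fl, and the *Cxxc1*-deficient mice were *Cxxc1* fl/fl h*CD2*-Cre, so both genotypes carry the floxed allele. A human CD2 transgene drives Cre in early thymocytes and also in other immune cells, and Cre removes an internal pair of exons. The sample label gives the genotype of the deficient library as *Cxxc1*+/-, and the library was grouped by its title. Mice were a few weeks old unless the study stated otherwise, on a C57BL/6 background, and thymi of the deficient mice held few DP cells. The number and sex of the mice behind each library are not given in the sources used here.

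Methylation of H3K9 marks silent chromatin: the SUV39H enzymes trimethylate it at pericentric repeats, EHMT1 (GLP) and EHMT2 (G9a) act as a heterodimer that dimethylates it in euchromatin, and SETDB1 is recruited through TRIM28 to retroelements. H3K36 methylation lies over transcribed genes, where SETD2 travels with RNA polymerase II and adds the trimethyl mark, while NSD1 and ASH1L add up to the dimethyl mark. DOT1L, which has no SET domain, methylates H3K79 in the body of transcribed genes.

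The deposited values are normalized per gene length. In genes under 900 bases with a single annotated length, 445 of 697 values in WT (63.8%) and 420 of 686 in *Cxxc1*-deficient cells (61.2%) were whole reads, within the rounding, when 1 read per kb of transcript was worth 4.05 (WT) or 4.70 (*Cxxc1*-deficient), against 15.9% and 13.6% from the spacing of such steps alone. At these steps the WT column stands for approximately 1373546 reads and the *Cxxc1*-deficient column for 710602. Ratios below are *Cxxc1*-deficient over WT, between deposited values, and intervals are 95% Clopper-Pearson intervals on the approximate reads. They cover counting error only and compare 2 libraries, and there is no replicate check and no p-value. The targeted gene, *Cxxc1*, had a value of 91 in the WT library against 50 in the *Cxxc1*-deficient one, and in the latter 135 of 1122 olfactory receptor genes, which thymocytes are not known to use and which serve below as the level of background, had a value at least as high. The log2 ratio of *Cxxc1* was -0.86, where the median of genes with a mean of 70 to 100 was -0.71. By qPCR the study found almost undetectable *Cxxc1* mRNA in deficient DP cells. A value per gene also counts exons outside the deleted pair, and their part in the remaining value was not tested. The 8 markers of DP thymocytes ranged from 1085 to 20778 in WT, so the labelled cell type was present, and summed to 36331 there against 9792 after *Cxxc1* deletion. Markers of B cells summed to 142 and 101, of macrophages and dendritic cells to 113 and 102, of NK cells to 162 and 126, of thymic epithelium to 126 and 113, with *Krt8* at 0 in *Cxxc1*-deficient cells, and of erythroid cells to 75 and 65, with *Hba-a1* at 0 in both. The 5 Y-linked genes examined were listed at 0 in WT and between 9 and 67 in *Cxxc1*-deficient cells, so sex and genotype cannot be told apart.

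All 10 methyltransferase genes had a lower deposited value in *Cxxc1*-deficient DP thymocytes, with 6 of 10 lower when the libraries were given the same sum without the 100 most abundant genes, 4 of 10 with the same total of reads on genes and 1 of 10 with the same median over well-expressed genes. A lower value was found for 60% of the 20125 genes above 0, for 82.6% of the 3657 genes with a mean of 50 to 100 over both libraries and for 95.2% of the 2472 genes whose mean was 100 or more. Of the 10 genes, 6 lay in the former range and 4 in the latter. Their median log2 ratio was -0.65, against -0.20 over all genes, -0.53 for means of 50 to 100 and -1.08 for means of 100 or more. Only *Suv39h1* was at least 2-fold lower, where 17.4% of all genes, 20% of genes with a mean of 50 to 100 and 56.8% of genes whose mean was 100 or more were. With each of the 3 scalings named above no gene of the 10 was at least 2-fold lower, and 5 were after subtraction of the olfactory receptor median. None of the 10 was at least 2-fold higher, as were 5.89% of all genes. In bulk RNA, fewer cells that use a gene and less of its RNA per cell cannot be told apart.

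**Figure D1:**
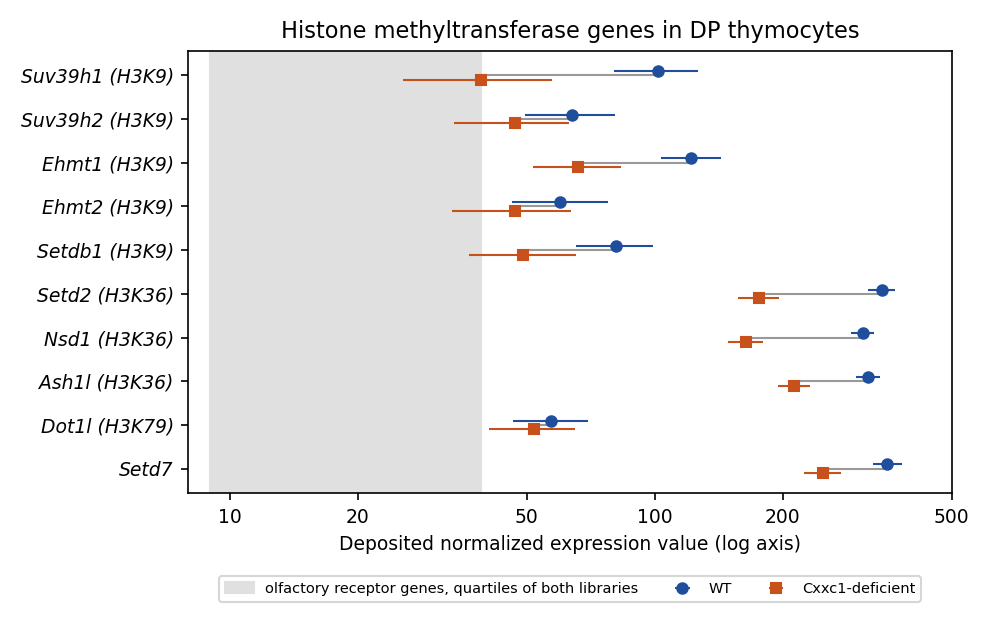
Deposited normalized expression value (log axis) of each gene in the WT library (circles) and the Cxxc1-deficient library (squares), with 95% Poisson intervals of the approximate reads. The grey band spans the quartiles of olfactory receptor genes. All 10 genes were lower in the Cxxc1-deficient library as deposited, and under other scalings of the libraries as few as 1 was.

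The promoters of these genes could be read for 8 of the 10 from RefSeq (build GRCm38.p6), with 10 annotated starts. Over the 250 bases before the start, they held 11 to 44 CpG dinucleotides (the letters CG, a palindrome and so the same on both strands), with a median of 25.5, against a median of 6 over 32841 promoters of the same length. At least 11 were present in 35.6% of all promoters, a set not restricted to expressed genes. Both ends of the range are shown because they belong to the genes with the lowest and the highest ratio between the libraries. This choice was made after the values were seen, and the low end comes from only 1 of 2 *Suv39h1* starts. A relation of CpG number to the ratio was not tested. The sequences run 5′ to 3′ on the strand of the gene, with each CG in capitals. They are the outer of 2 annotated *Suv39h1* starts, on the minus strand at chrX:8074761-8075010, and *Dot1l*, on the plus strand at chr10:80754953-80755202.
Suv39h1: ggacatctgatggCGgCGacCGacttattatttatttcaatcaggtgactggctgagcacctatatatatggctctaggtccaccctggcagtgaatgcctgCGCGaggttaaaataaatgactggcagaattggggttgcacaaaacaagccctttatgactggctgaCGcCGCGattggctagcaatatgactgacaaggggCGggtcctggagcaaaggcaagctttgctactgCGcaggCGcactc
Dot1l: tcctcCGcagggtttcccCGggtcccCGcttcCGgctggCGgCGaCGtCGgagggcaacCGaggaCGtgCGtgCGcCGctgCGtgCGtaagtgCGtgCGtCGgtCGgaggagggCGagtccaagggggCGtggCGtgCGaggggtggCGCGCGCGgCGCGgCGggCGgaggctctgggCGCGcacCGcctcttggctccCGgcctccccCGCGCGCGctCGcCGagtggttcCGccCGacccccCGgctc
The *Dot1l* sequence held 44 CpG, a number reached by 0.539% of promoters, at a GC content of 78.4%. The *Suv39h1* sequence held 11 at a GC content of 51.6%, whereas the inner *Suv39h1* start had 25, reached by 10.7% of promoters. *Setdb1* had 13, *Setd7* 17, *Ehmt1* 26, *Suv39h2* 27 and *Setd2* 31, and the 2 starts of *Ehmt2* had 18 and 36. These counts are a description of the letters; methylation and Cxxc1 binding at these promoters were not analysed here.

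Among the H3K9 enzymes, *Suv39h1* had the lowest ratio. *Suv39h1* lies on chromosome X of mm9 (NCBIM37) from 7638297 to 7651886 on the minus strand, and had a value of 102 in the WT library against 39 in the *Cxxc1*-deficient one. These values rest on approximately 78 and 26 reads and give a ratio of 0.382 with an interval from 0.238 to 0.609. It was the lowest ratio of the 10 genes, with 7.0% of genes of its level range at or below it. Its log2 ratio of -1.39 was 0.85 under the median of genes with a mean of 50 to 100, and the median was -0.71 in the narrower range from 70 to 100. In *Cxxc1*-deficient cells 25.8% of the 1122 olfactory receptor genes had a value at least as high, against 0 of them in WT. The remaining *Suv39h1* value thus lay within the spread of these genes. Its counting interval, 25.6 to 57.4, lay above their median of 24. Over the 83 X-linked genes with a mean of 50 to 100, the median log2 ratio was -0.79, against -0.53 over 3297 such genes of the other chromosomes. At or below *Suv39h1* were 12 of the 83 and 220 of the 3297. The part of the X chromosome in this value was not tested.

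*Suv39h2*, on chromosome 2 from 3373087 to 3392303 on the minus strand, encodes the paralog with the same activity. Its value was 64 in the WT library against 47 in the *Cxxc1*-deficient one, approximately 68 and 43 reads. The ratio of 0.734 had an interval from 0.488 to 1.09, which holds 1, so no difference was detectable at this depth. *Suv39h1* over *Suv39h2* was 1.59 in WT, with an interval from 1.14 to 2.24, and 0.830 in *Cxxc1*-deficient cells, with an interval from 0.495 to 1.40, so an order of the paralogs was detectable in WT alone. Both lay under the 95th percentile of olfactory receptor genes, 57, in the *Cxxc1*-deficient library. The second ratio was 0.521 times the first, with a conditional exact interval from 0.280 to 0.984, and no scaling factor changes this quantity. The upper bound lies close to 1, and it would be higher if fewer reads were counted than approximated here. After subtraction of the olfactory receptor median the ratio of the paralogs was 1.90 and 0.652, a change of 0.342-fold. The exons of *Suv39h2* share 357 bases, 8.10% of their length, with *Dclre1c* on the opposite strand, which had 362 and 225. *Suv39h1* exons share 596 bases, 11.3%, with the antisense transcript *Gm14820*. The library kit is not stated to keep the strand, and reads of these stretches cannot be assigned to either gene.

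*Ehmt1* and *Ehmt2* encode the partners of the H3K9 dimethylating heterodimer. *Ehmt1*, on chromosome 2 from 24646289 to 24775129 on the minus strand, was the highest of the H3K9 enzymes in both libraries, with 122 in the WT library against 66 in the *Cxxc1*-deficient one. From approximately 154 and 72 reads the ratio was 0.541, with an interval from 0.404 to 0.721. *Ehmt2*, on chromosome 17 from 35035414 to 35050997 on the plus strand, had 60 and 47, a ratio of 0.783 with an interval from 0.504 to 1.17, which holds 1. *Ehmt1* over *Ehmt2* was 2.03 in WT (1.49 to 2.77) and 1.40 in *Cxxc1*-deficient cells (0.951 to 2.14). The change of this ratio, 0.691-fold, had an interval from 0.419 to 1.18. A difference between the partners in their change from WT was thus not detectable, whereas their levels differed in WT.

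*Setdb1* lies on chromosome 3 from 95127447 to 95161124 on the minus strand. It had a value of 81 in the WT library against 49 in the *Cxxc1*-deficient one, approximately 93 and 49 reads, and a ratio of 0.605 with an interval from 0.423 to 0.872. Its log2 ratio of -0.73 was 0.19 below the median of its level range. Of the 50-base windows of its longest coding transcript, 8.44% occur more than once in the genome, the highest share of the 10 genes, and reads from them would not have been kept as unique. For the other 9 genes this share was at most 0.196%, whereas it was 85.6% for *Gapdh*, a gene with many processed copies that was listed at 6 and 10. Windows found nowhere in the genome, among them those that span a splice junction, made up 4.39% of the windows of *Setd7* and 30.4% of those of *Ehmt2*, the lowest and highest shares. Whether such reads were mapped is not given in the sources used here, and both libraries share this limit. The 5 H3K9 enzymes together had a median log2 ratio of -0.73.

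**Figure D2:**
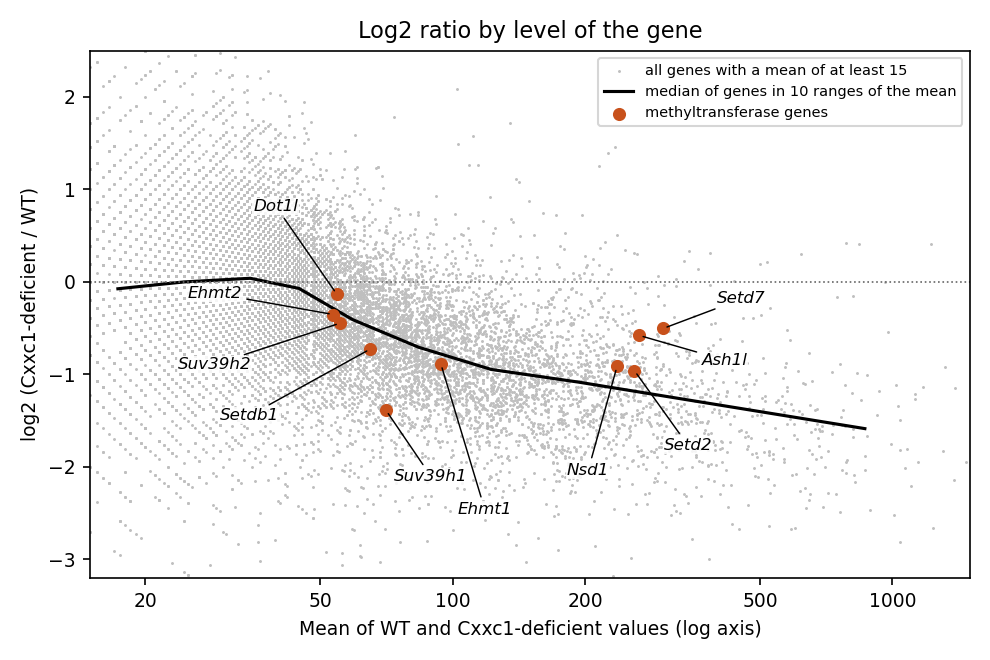
Log2 ratio (Cxxc1-deficient over WT, as deposited) against the mean of both libraries (log axis) for all genes with a mean of no less than 15 (grey), the median in ranges of the mean (line) and the methyltransferase genes (orange). The line falls from about 0 under a mean of 40 to -1.29 between 250 and 500. *Suv39h1* lies below it, while *Ash1l* and *Setd7* lie above it, and these positions relative to the line do not depend on a scaling factor.

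The H3K36 enzymes were better expressed, with WT values from 309 to 342. *Setd2*, on chromosome 9 from 110435101 to 110521137 on the plus strand, had 342 in the WT library against 176 in the *Cxxc1*-deficient one, approximately 704 and 313 reads. Its ratio was 0.515 with an interval from 0.449 to 0.589, and 59.99% of genes at this level (mean of 100 or more) had a ratio at least as low. *Nsd1*, on chromosome 13 from 55311143 to 55419686 on the plus strand, had 309 and 164, approximately 974 and 446 reads and the most of the 10 genes. Its ratio of 0.531 had an interval from 0.473 to 0.594. The median ratio of genes whose mean was 100 or more was 0.471. In narrower ranges it was 0.410 for means of 250 to 500, which hold *Setd2* and leave its interval above the median, and 0.472 for means of 150 to 250, which hold *Nsd1*. In *Cxxc1*-deficient cells, where they were neighbours in level, *Setd2* over *Nsd1* was 1.07 with an interval from 0.927 to 1.24, which holds 1.

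*Ash1l*, on chromosome 3 from 88769734 to 88883295 on the plus strand, kept more of its WT value than the other H3K36 enzymes. It had 318 in the WT library against 213 in the *Cxxc1*-deficient one, approximately 884 and 511 reads. The ratio was 0.670 with an interval from 0.599 to 0.747, above the intervals of *Setd2* and *Nsd1*. Of genes whose mean was 100 or more, 81.5% had a ratio at least as low. In *Cxxc1*-deficient cells *Ash1l* over *Setd2* was 1.21, with an interval from 1.05 to 1.40, while *Setd2* over *Ash1l* was 1.08 in WT, with an interval from 0.972 to 1.19.

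*Dot1l*, the gene of the H3K79 enzyme, had the highest ratio of the 10 genes. It lies on chromosome 10 from 80217951 to 80258206 on the plus strand, and had 57 in WT, the lowest WT value of the 10 genes, and 52 in *Cxxc1*-deficient cells. From approximately 96 and 75 reads the ratio was 0.912 with an interval from 0.660 to 1.24, so a difference of either sign was not detectable between the values as deposited. With the same total of reads in both libraries the interval of the log2 ratio had a lower bound of 0.14, and with the same median over well-expressed genes one of 0.40, so it lay above 0 in both cases. In WT 3.39% of olfactory receptor genes had a value at least as high, and in *Cxxc1*-deficient cells 9.36%. The 4 genes of the DOT1L complex list, which encode the AF10, AF17, ENL and AF9 partners, were *Mllt10* with 203 and 122, *Mllt6* with 57 and 45, *Mllt1* with 49 and 44, and *Mllt3* with 129 and 72. All 4 values were lower as deposited, none by 2-fold, with a median log2 ratio of -0.54. Of the 4, 2 had a mean of 100 or more, where 95.2% of all genes were lower and 56.8% at least 2-fold lower. Over all genes 60% were lower and 17.4% at least 2-fold lower.

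*Setd7*, on chromosome 3 from 51319241 to 51364800 on the minus strand, had the highest value of the 10 genes in both libraries, 353 in the WT library against 249 in the *Cxxc1*-deficient one. In WT this was above 97.4% of all genes of the table, and in *Cxxc1*-deficient cells above 98.96%. From approximately 645 and 393 reads the ratio was 0.705 with an interval from 0.621 to 0.801. Its log2 ratio of -0.50 was 0.58 above the median of genes whose mean was 100 or more, the largest such distance of the 10 genes, and 84.1% of those genes had a ratio at least as low.

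**Figure D3:**
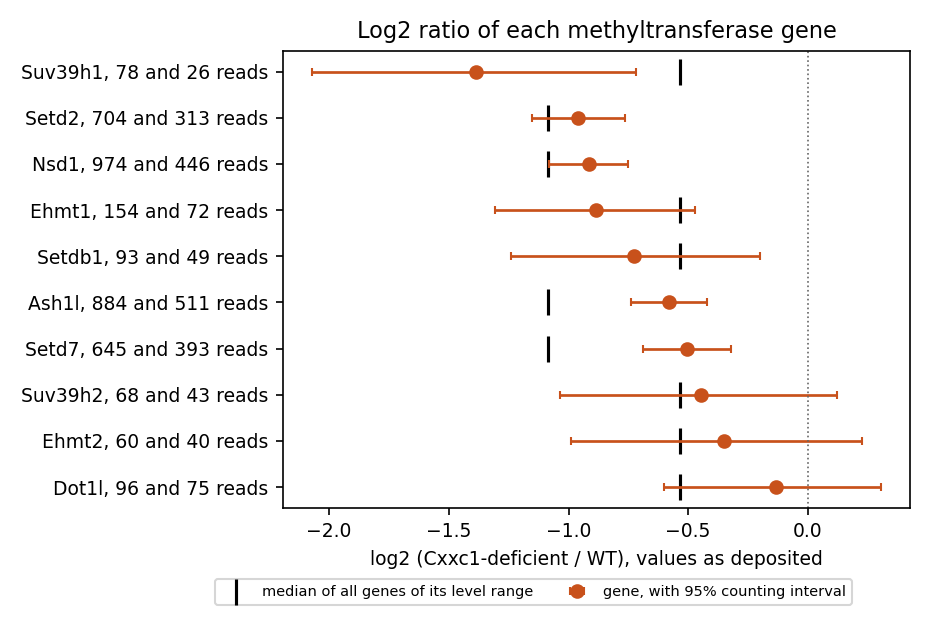
Log2 ratio (Cxxc1-deficient over WT, as deposited) of each gene with its 95% counting interval, ordered by ratio. The black mark is the median of all genes of the same level range (mean of 50 to 100 or at least 100), and the labels give approximate reads in WT and Cxxc1-deficient cells. The intervals of 7 genes lie below 0 as deposited, and those of *Suv39h2*, *Ehmt2* and *Dot1l* hold 0. The share of all genes with an interval below 0 was not computed.

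As deposited, the interval lay below a ratio of 1 for 7 of the 10 genes and held 1 for 3. The share of all genes with such an interval was not computed. A lower value was found for 82.6% of genes with a mean of 50 to 100 and for 95.2% at 100 or more. With the same total of reads the interval lay below 1 for 2 (*Setd2* and *Nsd1*) and above 1 for 3 (*Ash1l*, *Dot1l* and *Setd7*). It held 1 for 5, *Suv39h1* among them with an upper bound of 1.02. Relative to the median of their level range, a distance that no scaling factor moves with the ranges held fixed, 3 genes were lower (*Suv39h1*, *Ehmt1* and *Setdb1*) and 7 were higher. The interval left out that median for 4 genes, namely *Suv39h1* below it and *Setd7*, *Ash1l* and *Nsd1* above it, the last by a margin of 0.473 against 0.471. Against the medians of the narrower ranges drawn as a line in the plot of ratio by level, a choice made after the values were seen, 4 genes were lower, with *Suv39h2* added, and 6 were higher. The interval then lay below the median for 1 gene, *Suv39h1*, by a margin of 0.609 against 0.613. Fewer reads than approximated here would widen that interval. For 4 genes, with *Setd2* added, the interval lay above the median, and for the other 5 it held the median. In WT the order of levels was *Setd7*, *Setd2*, *Ash1l*, *Nsd1*, *Ehmt1*, *Suv39h1*, *Setdb1*, *Suv39h2*, *Ehmt2* and *Dot1l*. Of the 9 pairs of neighbours, only *Nsd1* and *Ehmt1* differed beyond their counting error, by 2.53-fold with an interval from 2.13 to 3.01. In *Cxxc1*-deficient cells *Ash1l* stood second and *Suv39h1* last, and 3 of 9 neighbouring pairs differed beyond it: *Setd7* and *Ash1l*, *Ash1l* and *Setd2*, and *Nsd1* and *Ehmt1*. The 95th percentile of olfactory receptor genes was 53.95 in the WT library against 57 in the *Cxxc1*-deficient one. All 10 genes lay above it in WT and 5 did in *Cxxc1*-deficient cells, the 5 being *Ehmt1*, *Setd2*, *Nsd1*, *Ash1l* and *Setd7*.

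The further enzymes of the same marks include the paralogs of NSD1. Of 9 other H3K9 and H3K36 methyltransferase genes, 8 had a lower value, none by 2-fold, and the median log2 ratio was -0.31. Over all genes the median was -0.20, with 60% lower and 17.4% at least 2-fold lower. The highest in WT were *Whsc1l1* (NSD3) with 297 and 180, *Prdm2* with 210 and 117, and *Whsc1* (NSD2) with 181 and 153. *Whsc1* thus had a ratio of 0.845, against 0.531 for its paralog *Nsd1* and 0.606 for *Whsc1l1*. The gene with a higher value, *Setmar*, had 45 and 50.

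The H3K9 enzymes work with binding partners and with proteins that read the mark. Of 13 such genes, 12 had a lower value as deposited and 4 were at least 2-fold lower, and the median log2 ratio was -0.88. In the range of means of 100 or more, which held 9 of the 13, the background was 95.2% lower and 56.8% at least 2-fold lower, with a median of -1.08. The highest in WT was *Cbx1*, the gene of an HP1 protein that binds methylated H3K9, with 376 and 111, a ratio of 0.295. *Atf7ip*, the stabilizing partner of SETDB1, had 361 and 277, and *Fam208a*, a subunit of the HUSH silencing complex, had 361 and 152. The 4 at least 2-fold lower were *Cbx1*, *Fam208a*, *Cbx5* with 219 and 108, and *Morc2a* with 143 and 59. *Trim28*, which recruits SETDB1, had 154 and 102, and *Uhrf1* had 16 in both libraries.

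For H3K36, 11 of 13 partner and reader genes had a lower value as deposited and 4 were at least 2-fold lower, with a median log2 ratio of -0.94. Here too 9 of the 13 lay in the range where 95.2% of all genes were lower and 56.8% at least 2-fold lower. The highest in WT were *Mtf2*, a polycomb-associated Tudor protein gene, with 347 and 150, *Psip1*, which encodes the H3K36 methylation reader LEDGF, with 333 and 173, and *Msh6*, a mismatch repair gene whose protein reads H3K36 trimethylation, with 289 and 103. *Iws1*, which links SETD2 to RNA polymerase II, had 238 and 92, and the DNA methyltransferase gene *Dnmt3a* had 180 and 88, both at least 2-fold lower. *Morf4l1* was listed at 0 in WT and at 14 in *Cxxc1*-deficient cells, and *Dnmt3b* had 22 and 25.

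All 12 genes of demethylases that remove H3K9 or H3K36 methylation had a lower value as deposited, 6 of them by at least 2-fold, with a median log2 ratio of -0.99. The highest in WT were *Phf2* with 584 and 257 and *Jmjd1c* with 411 and 303, both of the H3K9 class, and *Kdm2a*, of the H3K36 class, with 371 and 212. Of the 12, 8 had a mean of no less than 100, where 95.2% of all genes were lower and 56.8% at least 2-fold lower, the background for most of this list. Of 10 proliferation genes, 6 had a lower and 4 a higher value, none by 2-fold, with a median log2 ratio of -0.15. Only 1 of these 10 had a mean of 100 or more, so the shares just given are not their background. Among all genes above 0, 60% had a lower value and the median log2 ratio was -0.20. A fall of 2-fold or more was found for 17.4% of all genes, and a rise of that size for 5.89%. *Mki67*, a marker of cycling cells, had 204 and 187, *Top2a* had 103 and 78, and *Mcm2* had 82 and 87. Like the count for the methyltransferases, these counts of lower values depend on the scaling of the libraries.

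**Figure D4:**
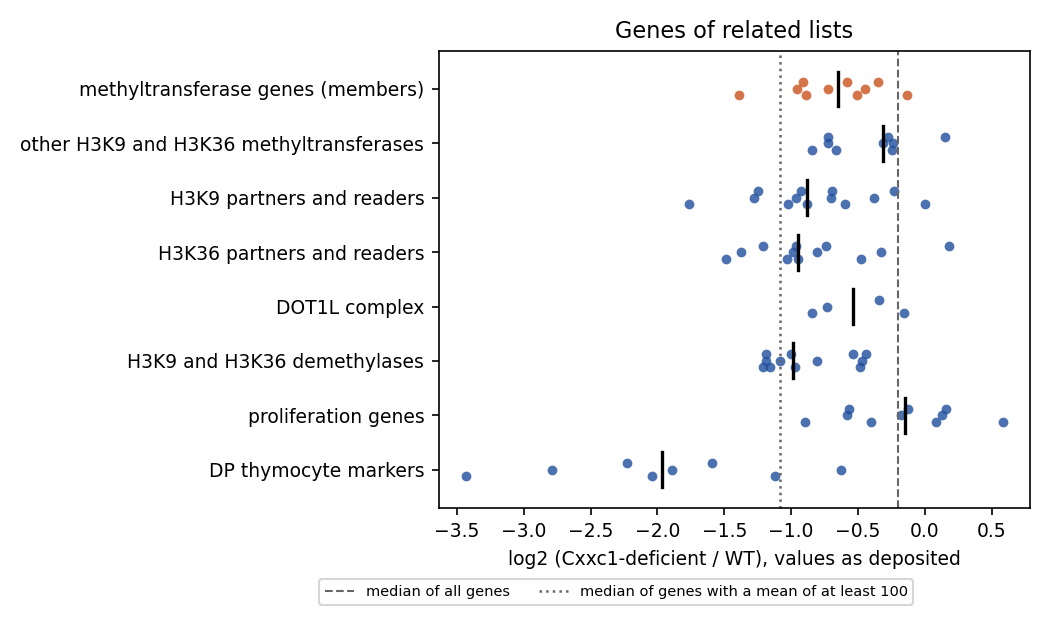
Log2 ratio (Cxxc1-deficient over WT, as deposited) of each gene of the related lists, with the median of each list as a black bar and the medians of all genes (dashed, -0.20) and of genes whose mean was 100 or more (dotted, -1.08). *Morf4l1*, listed at 0 in WT, is not drawn. The methyltransferases have a median of -0.65, the demethylases of -0.99 and the DP markers of -1.97. Another scaling moves all points by the same amount.

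The position of the whole set against 0 was set by the scaling, while no scaling factor changes the spread among the 10 genes. Background handling does change it. From *Suv39h1* to *Dot1l* the log2 ratios ran from -1.39 to -0.13 as deposited. They ran from -2.42 to -0.32 after subtraction of the olfactory receptor median and from -1.19 to -0.11 with a pseudocount of 10. *Suv39h1* had the lowest log2 ratio of the 10 and *Dot1l* the highest, an order that no scaling factor can change. Counting error does not settle either end. As deposited, the interval of *Suv39h1*, 0.238 to 0.609, overlaps that of *Ehmt1*, 0.404 to 0.721. The interval of *Dot1l*, 0.660 to 1.24, overlaps that of *Ehmt2*, 0.504 to 1.17. With the libraries given the same total of reads on genes, *Suv39h1* had a log2 ratio of -0.65, *Ehmt1*, *Setd2* and *Nsd1* lay between -0.22 and -0.15, *Setdb1* was at 0.01, and *Ash1l*, *Setd7*, *Suv39h2*, *Ehmt2* and *Dot1l* lay between 0.16 and 0.61.

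**Figure D5:**
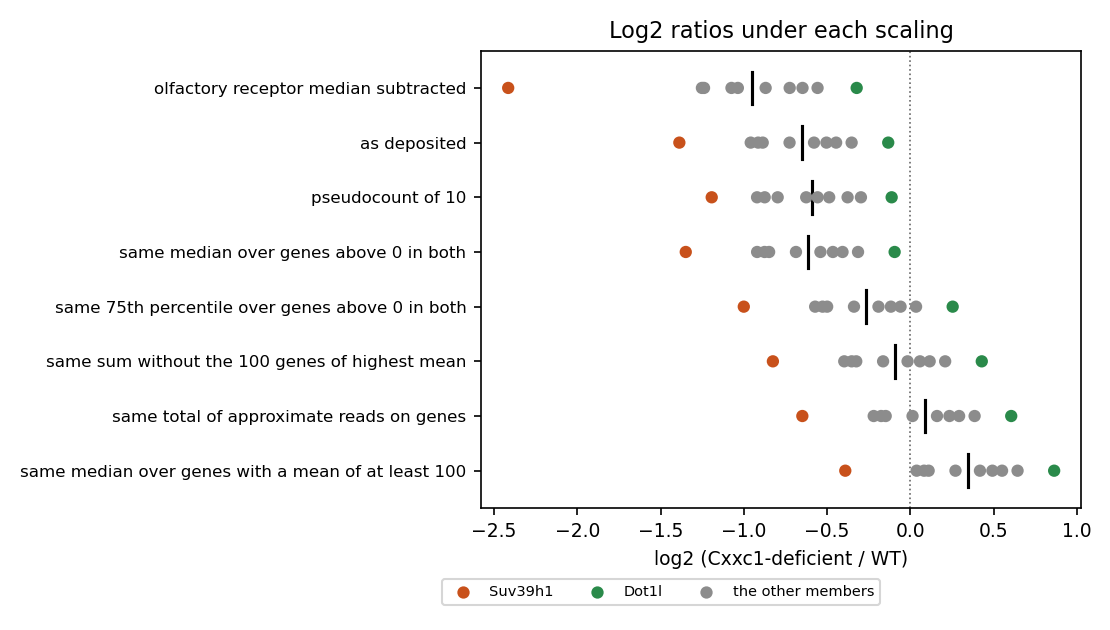
Log2 ratio (Cxxc1-deficient over WT) of the 10 genes under each scaling, subtraction or pseudocount (rows), with *Suv39h1* in orange, *Dot1l* in green, the other genes in grey and the median as a black bar. The median runs from -0.95 after subtraction of the olfactory receptor median to 0.34 with an equal median of genes whose mean was 100 or more. *Suv39h1* is lowest and *Dot1l* highest in every row, but a scaling factor cannot change the order. Only the subtraction and the pseudocount could have.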

How the data were processed

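RNA-seq of 1 WT and 1 *Cxxc1*-deficient library was analysed. Per the labels, CASAVA 1.8.2, Bowtie 1.0.1 and Partek were used with mm9, and the study kept uniquely mapped 50-base reads. The authors deposited 1 whole-number score per gene and library, normalized and rounded, whose unit, gene annotation and splice handling are not given in the sources used here. Genes, and the lists and ranges used, were chosen with earlier results of these data known. Ratios used a floor of 1 and a threshold of 2-fold. Named genes were the 10 members, *Cxxc1*, *Gapdh* and the 3 genes of highest WT value of each list, and any others were named after their values were seen. Approximate reads used the longest coding GENCODE vM1 transcript (on NCBIM37, the build of mm9), with 19090 genes matched by symbol. If shorter transcripts were counted, the reads are fewer and the intervals wider. Windows were matched exactly to NCBIM37 on both strands. Scalings, a pseudocount of 10, background subtraction, a filter and thresholds were alternatives. Ratios, intervals and read sizes were tested on simulated data. The simulated reads were drawn and read back with the same transcript lengths, so an error in those lengths could not show. Computation ran in scipy 1.17.1, pandas 2.3.3 and numpy 2.4.6 under Python 3.11.15, with figures from matplotlib 3.10.9.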

Additional observations from a re-analysis of the deposited data

How the results depend on the processing

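The direction of the methyltransferase genes as a group depended on the scaling of the libraries. Their median log2 ratio of -0.65 as deposited became -0.090 when sums leaving out the 100 most abundant genes were equalised and reversed to 0.34 when medians of well-expressed genes (mean of 100 or more) were equalised and to 0.087 with the same total of approximate reads on genes, a scaling added after seeing the data, as were the narrower ranges and the subtraction for the paralog ratios. The lower genes were then 6, 1 and 4 of 10, and the genes at least 2-fold lower were 0 in each. These changes follow from the factors of 1.48, 2.0 and 1.67 applied to the *Cxxc1*-deficient library, which shifted the all-gene median by 0.56, 1.00 and 0.74. The scaling to the same 75th percentile moved it by 0.39 and left 8 of 10 lower. Subtraction of the olfactory receptor median gave 5 genes at least 2-fold lower, a threshold of 1.5-fold 5 and a threshold of 3-fold 0. *Suv39h1* had the lowest log2 ratio and *Dot1l* the highest in every setting run, from -2.42 to -0.39 and from -0.32 to 0.86, as the plot of the settings shows. The scaling factors and the filter cannot change the order of the genes, so only the subtraction and the pseudocount could have. Their counting intervals overlap those of other members. Of 80 log2 ratios of single genes under an alternative, 48 stayed within the gene's counting interval and 21 were above 0. The filter on the mean leaves each ratio as it is, so its share of the 48 was fixed in advance. No paired analysis was possible because there is a single library per genotype and nothing was tested. Depth limits the genes with a mean under 100, which rest on 26 to 154 reads per library.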
